A study of Homo sapiens with 8 samples.

Results

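A set of 10 genes of the lung epithelium were examined in PC9 cells, an established human lung adenocarcinoma cell line. The genes were chosen by name, and the region of each was its gene body in GRCh37 (the build the authors call hg19) plus 2000 bp upstream of the annotated start. All 10 genes were found among 20136 protein-coding genes of the GENCODE annotation mapped to that build. They were the transcription factors *NKX2-1*, *FOXA1*, *FOXA2* and *TP63*, the surfactant protein genes *SFTPA1*, *SFTPB*, *SFTPC* and *SFTPD*, the protease gene *NAPSA* and the club cell gene *SCGB1A1*. The data were ChIP-seq island lists for H3K27me3 and H3K4me3. For each mark there were 2 libraries from cells given DMSO and 2 libraries from cells given 1 μM GSK126 for 5 days, which makes 8 libraries and 14 lists. GSK126 blocks the methyltransferase EZH2, and *D. melanogaster* chromatin with an antibody against its histone H2Av had been added to every reaction as a spike-in reference.

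H3K27me3 is laid down by EZH2 as the catalytic subunit of the Polycomb repressive complex PRC2 over genes that are kept silent in a cell type. H3K4me3 marks the starts of active genes, and a start that carries both marks is called bivalent. In the distal lung the homeodomain factor NKX2-1 works with the forkhead factors FOXA1 and FOXA2 to activate the surfactant genes, *NAPSA* and *SCGB1A1*. The surfactant proteins are made by alveolar type 2 cells, secretoglobin 1A1 by club cells, and TP63 is a factor of airway basal cells and of squamous carcinoma. NKX2-1 and napsin A, the product of *NAPSA*, are used by pathologists to recognize lung adenocarcinoma.

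An island is a stretch in which windows of 200 bp hold more tags than chance placement would give them, joined across short gaps by the SICER algorithm. For H3K27me3, all libraries came with a standard list, in which both libraries of a replicate were cut to the same number of human tags, and with a spike-in list, in which tags of the GSK126 library were removed according to the *D. melanogaster* tags. The GSK126 libraries of H3K4me3 also had both lists, whereas each DMSO library of H3K4me3 had 1 list, which served in both comparisons. The lists hold no tag counts, but the mean number of tags per window could be read from the island scores. It was 1.65 and 2.33 for the H3K27me3 DMSO spike-in lists of replicates 1 and 2, 0.382 and 0.455 for the matching GSK126 lists, and 1.36 and 1.55 for the standard lists of either treatment. For H3K4me3 it was 1.48 to 1.77 in replicate 1 and 0.263 to 0.302 in replicate 2, so that replicate 2 was the shallower one. The H3K27me3 spike-in ratios of GSK126 to DMSO tags, 0.231 and 0.196, equal the paper's factors from tags over the whole *D. melanogaster* genome. The method the paper names as primary counts tags over H2Av regions only. Its factors were higher, mostly in replicate 2, so these lists were cut deeper than by that method. A lone window needed 12 to 27 tags to count as an H3K27me3 island and 9 to 21 tags as an H3K4me3 island. The scores of joined windows add up, so a longer stretch could be called with fewer tags per window. Values are for single libraries unless an SD is given, and GSK126 was compared with DMSO within a replicate. For 2 pairs the smallest p of an exact sign-flip test is 0.5, and treatment differences are therefore given without a p-value.

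The epithelial label of the cells was checked on H3K4me3 at gene starts, which is no measure of RNA. An H3K4me3 island lay within 2000 bp of the start in both DMSO libraries for 5 of 7 epithelial markers (*CDH1*, *KRT7*, *KRT8*, *KRT18* and *KRT19*), for 1 of 5 blood markers (*CD14*), for 1 of 2 endothelial markers that could be found (*CDH5*), and for 1 of 4 fibroblast markers (*COL1A1*). Over all protein-coding genes the share was 60.5%, so that the epithelial count alone is close to that of any genes, and the counts of the other cell types lie below it. *MYT1*, a classical PRC2 target, was covered by H3K27me3 islands over 92.1% and 94.9% of its region with DMSO. The active genes *ACTB* and *GAPDH* were covered by H3K4me3 islands over 34.4% to 53.1% and over 100% of their regions with DMSO. The *ACTB* region also held H3K27me3 islands with DMSO, over 6.08% and 18.7% in the spike-in lists and over 7.09% and 14.7% in the standard lists, and none with GSK126.

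The starts of these genes differed in sequence as well as in marks. Promoter sequences from RefSeq were available for 7 of the 10 genes, as 10 promoters that were each located once in GRCh37. *FOXA2*, *SFTPC* and *SCGB1A1* were not matched. Below are 4 of them, shown because their genes stand for the 4 states of H3K27me3 and H3K4me3 described below. These states were called within 2000 bp of the annotated gene start and not on the printed bases. Each runs 5′ to 3′ on the strand of the gene within the 250 bases before a start, leaving out annotated exons, with CpG dinucleotides in capitals. They are *NKX2-1* (chr14:36989492-36989687, minus strand, GRCh37), *FOXA1* (chr14:38064554-38064704, minus strand), *SFTPA1* (chr10:81370445-81370694, plus strand) and *SFTPB* (chr2:85895375-85895572, minus strand).
NKX2-1: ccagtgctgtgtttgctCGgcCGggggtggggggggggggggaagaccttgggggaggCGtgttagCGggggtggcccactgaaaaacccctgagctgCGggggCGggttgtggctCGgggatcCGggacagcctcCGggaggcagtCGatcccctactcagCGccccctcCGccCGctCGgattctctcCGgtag
FOXA1: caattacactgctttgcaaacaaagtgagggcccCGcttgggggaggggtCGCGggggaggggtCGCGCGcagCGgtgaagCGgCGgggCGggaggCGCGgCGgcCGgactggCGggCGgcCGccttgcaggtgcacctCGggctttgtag
SFTPA1: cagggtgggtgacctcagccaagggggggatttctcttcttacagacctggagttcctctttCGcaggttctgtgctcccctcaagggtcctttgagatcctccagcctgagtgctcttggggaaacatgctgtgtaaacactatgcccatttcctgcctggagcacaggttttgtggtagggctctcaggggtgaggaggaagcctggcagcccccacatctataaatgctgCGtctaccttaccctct
SFTPB: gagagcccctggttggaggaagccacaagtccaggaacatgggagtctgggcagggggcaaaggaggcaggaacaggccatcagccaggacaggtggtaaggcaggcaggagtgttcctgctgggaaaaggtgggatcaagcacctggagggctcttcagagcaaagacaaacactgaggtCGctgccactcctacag

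Over the full 250 bases, the *FOXA1* promoter held 26 CpG dinucleotides and the *NKX2-1* promoter 18, whereas *SFTPB* held 3, *SFTPA1* 2 and *SFTPD* 1. The median over all 35116 promoters was 11, with quartiles of 3 and 23. The promoter of *TP63* held 6 CpG dinucleotides and the one at the canonical start of *NAPSA* 3. Both CpG-rich promoters were covered by H3K4me3 islands over all 250 bases in each of the 6 H3K4me3 lists, and the promoters of *SFTPA1*, *SFTPB*, *SFTPD* and *TP63* were covered in none of them. H3K4me3 coverage did not simply follow the CpG count. A second start of *NKX2-1*, with 7 CpG dinucleotides, and an upstream start of *NAPSA*, with 10, were also covered over all 250 bases in the 6 lists. H3K27me3 islands with DMSO covered 0 bases of the *NKX2-1* promoter at the canonical start in replicate 1 and 250 in replicate 2 of the spike-in lists. In the standard lists they covered 250 bases in replicate 1 and 0 in replicate 2. Letters of 3 motifs were searched on both strands. TATAAA, the core of the TATA box, was found in *SFTPA1* alone of the 7 genes and in 10.7% of all promoters. TGTTTAC, a forkhead motif, was found in *SFTPA1* and at a second start of *NKX2-1*, and in 2.98% of all promoters. CTCAAG, a motif of NKX2-1 sites, was found in *SFTPA1*, in *FOXA1* and at an upstream start of *NAPSA*, and in 10.4% of all promoters.

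To ask which marks the lineage genes carried before treatment, islands of both DMSO libraries within 2000 bp of the annotated gene start were counted. *NKX2-1* and *SFTPC* carried both marks, a state found at 6.07% of all protein-coding genes. *SFTPA1* and *NAPSA* carried H3K27me3 alone (13.4% of all genes), *FOXA1*, *FOXA2* and *SFTPD* carried H3K4me3 alone (54.4%), and *SFTPB*, *SCGB1A1* and *TP63* carried neither (26.1%). The H3K27me3 call of *NAPSA* was lost when islands were counted within 1000 bp of the start, and the H3K4me3 call of *FOXA2* within 500 bp or when a score at least 2 times the lowest of the list was asked for. Thus the forkhead factors had a start with the active mark and no Polycomb mark, while *NKX2-1*, their partner, had both. In bulk chromatin, marks on the same nucleosomes and marks in different cells of the culture cannot be told apart. The class was the same for all 10 genes in the standard lists, where the shares of all genes were 5.48%, 12.4%, 55% and 27.1%. With GSK126 and the spike-in lists, H3K27me3 stayed at the start of *SFTPA1* and *SFTPC* in both libraries (9.9% of all genes), and H3K4me3 was at the start of *NKX2-1*, *FOXA1*, *SFTPC* and *SFTPD* (60%). The GSK126 standard lists gave the same genes for H3K27me3 (14.3%), and *FOXA2* in addition for H3K4me3 (60.3%). Where a gene has several starts, the class depended on the start used. From the start of the canonical transcript, which lies 33509 bp downstream of the annotated start in *SFTPD* and 4885 bp downstream in *SFTPC*, H3K27me3 was found at *NKX2-1*, *SFTPA1*, *SFTPC*, *SFTPD* and *NAPSA*, and H3K4me3 at *NKX2-1*, *FOXA1* and *FOXA2* only.

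With GSK126 and the spike-in normalization, H3K27me3 islands covered less of 5 of the 10 genes in both replicates, namely *NKX2-1*, *SFTPA1*, *SFTPC*, *SFTPD* and *NAPSA*, and more of none, as against 0.114% of all genes and 0.287% of those with an island in both DMSO libraries. Lower coverage in both replicates was found for 24.8% of all protein-coding genes, and for 89.7% of the 5573 genes that had an island in both DMSO libraries, as these 5 genes did, together with 27.7% of all genes. No H3K27me3 island was left with GSK126 in either replicate at *NKX2-1* and *NAPSA*, which is 2 of these 5 genes against 32% of the 5573. The covered length summed over the 10 genes went from 45.9 kb to 18.9 kb in replicate 1 and from 42.9 kb to 21.7 kb in replicate 2. This was a log2 ratio of -1.13 ± 0.21 (SD, n = 2), beside -1.06 ± 0.021 over all genes. In the 5 genes with an island in both DMSO libraries, the median difference was -31.4 and -33.8 percentage points of the region in replicates 1 and 2, beside -17.5 and -18.4 points over the 5573 genes. These medians belong to different genes. *SFTPC*, the median of replicate 1, had -10.4 points in replicate 2, and *SFTPA1*, the median of replicate 2, had -6.14 points in replicate 1. A loss in points is also limited by the share covered with DMSO, so the medians do not show a larger loss at these genes.

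**Figure D1:**
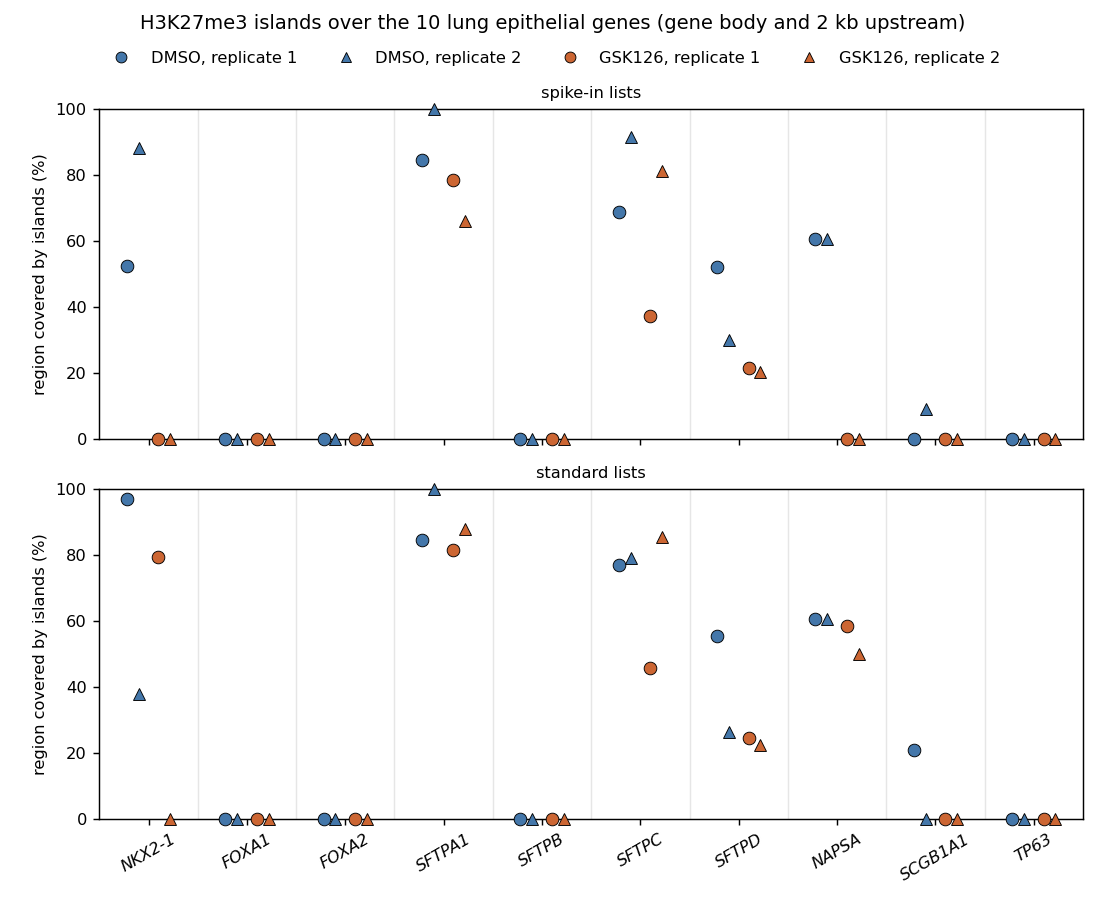
Percent of the gene region (gene body plus 2 kb upstream) covered by H3K27me3 islands, for each of the 10 genes, with spike-in lists above and standard lists below. Each point is 1 library: blue is DMSO, orange is GSK126, circles are replicate 1 and triangles replicate 2. *NKX2-1* and *NAPSA* sit at 0 in both GSK126 spike-in libraries, and *FOXA1*, *FOXA2*, *SFTPB* and *TP63* sit at 0 everywhere.

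*NKX2-1*, the lineage factor of lung and thyroid, spans chr14:36985597-36990354 on the minus strand, and its region was 6.76 kb long. H3K27me3 islands of the spike-in lists covered 52.6% and 88.1% of the region with DMSO in replicates 1 and 2, and 0% in both libraries with GSK126. The groups did not overlap, and 1.54% of the 5573 genes showed a larger decrease in percentage points in both replicates. Such a decrease cannot exceed the share covered with DMSO, and 32% of the 5573 genes had no island left in both replicates. How many of all genes had groups without overlap was not determined, here or for the genes below. In DMSO the islands ran from about 7 kb upstream of the annotated start into the gene, 7.8 kb long in replicate 1, where a second island of 1.2 kb lay inside the gene, and 11 kb long in replicate 2. H3K27me3 was not absent from the surroundings after GSK126. In the spike-in list of replicate 1 an island of 2.8 kb was found from 6.35 kb to 9.15 kb past the start, downstream of the gene, and in replicate 2 an island of 3.2 kb was found upstream, between -7.45 kb and -4.25 kb from the start. Both GSK126 libraries also had an island beginning about 10 kb past the start.

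In the standard lists, H3K27me3 covered 97.0% and 37.8% of the *NKX2-1* region with DMSO, and 79.2% and 0% with GSK126. Both replicates were lower with GSK126, but the groups overlapped, since GSK126 replicate 1 exceeded DMSO replicate 2. The scores of these islands per kb were 17.4 and 14.3 with DMSO, and 17.4 in the GSK126 library that had an island. *SFTA3* shares the annotated start of *NKX2-1*, and the H3K27me3 islands held that start in all 4 DMSO lists, so the marks cannot be assigned to 1 of these genes.

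H3K4me3 was present at *NKX2-1* in all 6 lists. Its island was 3.8 kb long in DMSO replicate 1 and 3.4 kb in both lists of GSK126 replicate 1. In replicate 2 it was 2.6 kb with DMSO and 2.2 kb in both lists with GSK126. Coverage of the region fell by 5.92 percentage points in each replicate, which is the length of 2 windows. The H3K4me3 islands lay around the canonical start and overlapped H3K27me3 islands of the same replicate with DMSO, and in the GSK126 spike-in lists the start carried H3K4me3 alone. A second H3K4me3 island of 1 to 1.4 kb lay about 4 kb upstream of the annotated start in every list. The 3 genes on other chromosomes whose covered percent over the 14 lists was nearest to that of *NKX2-1* were *C3orf80*, *MNX1* and *SYT5*, with Euclidean distances of 51.4, 54.9 and 55.4 points, where a gene with no island would be 198.65 points away.

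*NAPSA* encodes napsin A, an aspartic protease that processes surfactant protein B, and lies at chr19:50861729-50869087 on the minus strand. Its region was covered by H3K27me3 over 60.6% in both DMSO spike-in libraries and over 0% in both GSK126 libraries. The groups did not overlap, and 4.13% of the 5573 genes decreased more in both replicates. The DMSO islands began 1.69 kb inside the gene in all 4 DMSO lists and ran past its end, covering 8 of its 11 annotated starts and none of the 250 bases before the canonical start. With the standard normalization the coverage was 60.6% and 60.6% with DMSO, and 58.5% and 49.9% with GSK126. The islands were thus retained at equal tag number, with a score per kb of 22.6 and 23.5 with DMSO and of 20.2 and 16.6 with GSK126.

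No H3K4me3 island lay in the *NAPSA* region with DMSO. RefSeq also places a start of *NAPSA* upstream, at -3663 bp from the canonical one and inside the overlapping gene *NR1H2*, and there the picture was different. The 250 bases before this start held 10 CpG dinucleotides and were covered whole by H3K4me3 islands in all 6 lists and by H3K27me3 islands in none of 8. In DMSO these H3K4me3 islands were 2.2 kb and 1.8 kb long and ended 2.51 kb upstream of the annotated start. The spike-in list of GSK126 replicate 1 had an island of 3.4 kb that reached 487 bp into the *NAPSA* region, and the other GSK126 islands, of 1.4 to 2.4 kb, ended outside it.

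**Figure D2:**
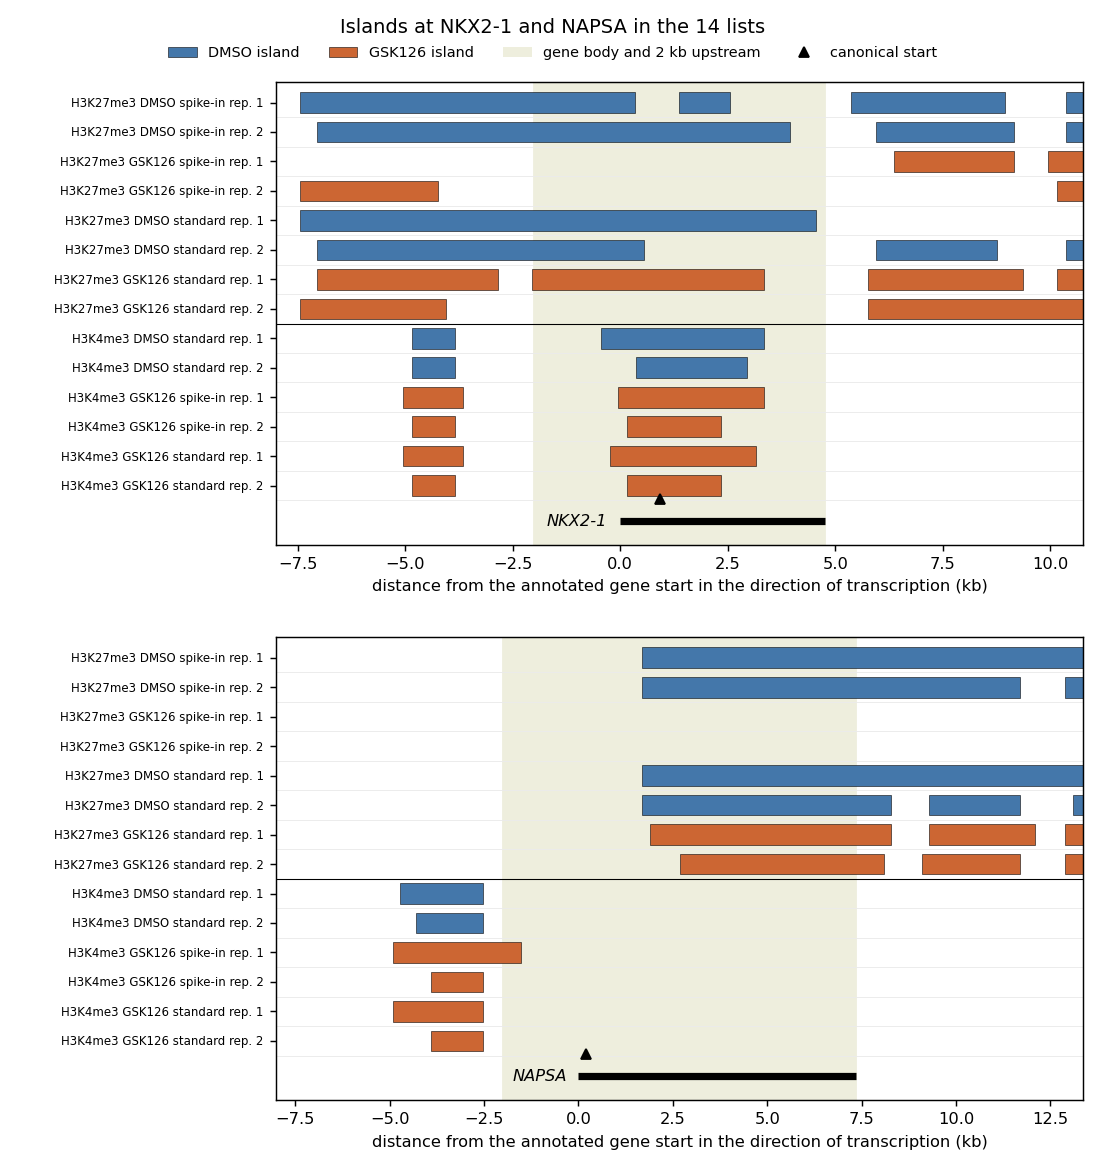
Islands at *NKX2-1* (top) and *NAPSA* (bottom) in the 14 lists, 1 list per line, against the distance in kb from the annotated gene start in the direction of transcription. Blue bars are DMSO islands, orange bars GSK126 islands, the shaded area is the gene body plus 2 kb upstream, the black line is the gene and the triangle its canonical start. With GSK126 no H3K27me3 island of the spike-in lists lies in either shaded area, whereas H3K4me3 islands are found at *NKX2-1* in all 6 lists.

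Surfactant protein genes fell into separate groups. *SFTPA1*, which encodes a collectin of the airspace, lies at chr10:81370695-81375211 and was covered by H3K27me3 in the spike-in lists over 84.7% and 100% with DMSO, and over 78.5% and 66.2% with GSK126. Both GSK126 values were below both DMSO values, but most of the region stayed covered. With the standard normalization it was 84.7% and 100% with DMSO, and 81.6% and 87.7% with GSK126, so that the groups overlapped. The change lay at the start. The 250 bases before the start were covered whole in all 4 DMSO lists, and in the GSK126 spike-in lists 156 bases were covered in replicate 1 and 0 in replicate 2, where islands ended 95 bp and 895 bp short of it. The nearest H3K4me3 island was 160.9 kb away or farther in every list. *SFTPA1* has a near-identical neighbour, *SFTPA2*, and only uniquely mapped tags had been kept, which limits the tags that could be placed in either gene.

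*SFTPB* encodes the surfactant protein without which breathing is not possible after birth. It lies at chr2:85884437-85895864, and no island of either mark was found in its region in any of the 14 lists. The nearest H3K27me3 island was 38.9 to 47.1 kb away with DMSO, and the nearest H3K4me3 island 7.74 to 8.34 kb away. An H3K27me3 island was absent from all 4 spike-in libraries at *SFTPB* and 3 more of the 10 genes (*FOXA1*, *FOXA2* and *TP63*), and at 67.9% of all genes.

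*SFTPC*, the gene of the most specific protein of alveolar type 2 cells, lies at chr8:22014426-22021992 and had H3K27me3 islands in every list. Coverage in the spike-in lists was 68.7% and 91.6% with DMSO, and 37.4% and 81.3% with GSK126. It was lower in both replicates, by 31.4 and 10.4 percentage points, but GSK126 replicate 2 exceeded DMSO replicate 1. In the standard lists it was 77.0% and 79.1% with DMSO, and 45.7% and 85.4% with GSK126, so the replicates moved in opposite directions. When only islands with a score at least 2 times the lowest of the list were kept, coverage in the standard lists was higher with GSK126 in both replicates. The part that was lost in the spike-in list of replicate 1 was mostly an island of 2.4 kb over the canonical transcript, and the island over the annotated start was shorter as well, at 5.2 kb instead of 5.8 kb. In replicate 2 the island over the canonical transcript was present in both treatments.

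At equal tag number the score per kb of the *SFTPC* islands was higher with GSK126. The score per kb of the standard lists was 44.9 and 74.0 with DMSO, and 149 and 163 with GSK126, a log2 ratio of 1.73 and 1.14, beside a median of 0.22 and 0.34 over the 4114 genes with an island in all 4 libraries. Only 5 of these genes, or 0.122%, had a larger ratio in both replicates. Both GSK126 values were above both DMSO values. The islands with the high scores span the start of *LGI3*, which lies just inside the annotated start of *SFTPC* on the other strand. Over the canonical transcript of *SFTPC* no GSK126 island was left in replicate 1, and no such ratio could be formed.

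H3K4me3 at *SFTPC* was found at both ends of the gene. A small island of 0.4 kb to 0.8 kb covered the annotated start in all 6 lists, and the H3K4me3 islands over it held the start of *LGI3* as well. In both DMSO libraries and in GSK126 replicate 1 an island at the start of *BMP1*, which begins 661 bp downstream, reached over the 3′ end of *SFTPC*. Coverage was 33.4% and 8.28% with DMSO, and 16.6% and 4.18% with GSK126 in both normalizations, and thus lower in both replicates. No H3K4me3 island covered the canonical start.

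*SFTPD* encodes surfactant protein D, a further collectin, and its annotated gene (chr10:81697223-81742370, minus strand) extends far upstream of the canonical transcript. H3K27me3 covered 52.1% and 30.1% of the region in the DMSO spike-in lists, and 21.6% and 20.3% with GSK126. The standard lists gave 55.5% and 26.3% for DMSO, then 24.6% and 22.4% for GSK126. DMSO exceeded GSK126 in every one of these libraries without overlap. The longest island in each DMSO list lay over the canonical transcript, whose region was covered over 90.6% in both DMSO spike-in lists, and over 74.1% and 69.6% with GSK126. Only DMSO replicate 1 also had islands near the annotated upstream start.

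The score per kb of the *SFTPD* islands at equal tag number was 43.7 and 55.1 with DMSO, and 75.5 and 87.02 with GSK126. This gave log2 ratios of 0.79 and 0.66, which 11.1% of the 4114 genes exceeded in both replicates. H3K4me3 was confined to the annotated upstream start in the 6 lists. It covered 8.48% and 5.09% of the region with DMSO, 11.4% and 2.55% in the GSK126 spike-in lists, and 8.91% and 2.97% in the GSK126 standard lists. In replicate 1 the spike-in list, which was called on fewer tags, covered more than the standard list of the same library, so that the order of covered lengths does not follow the tag number alone.

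**Figure D3:**
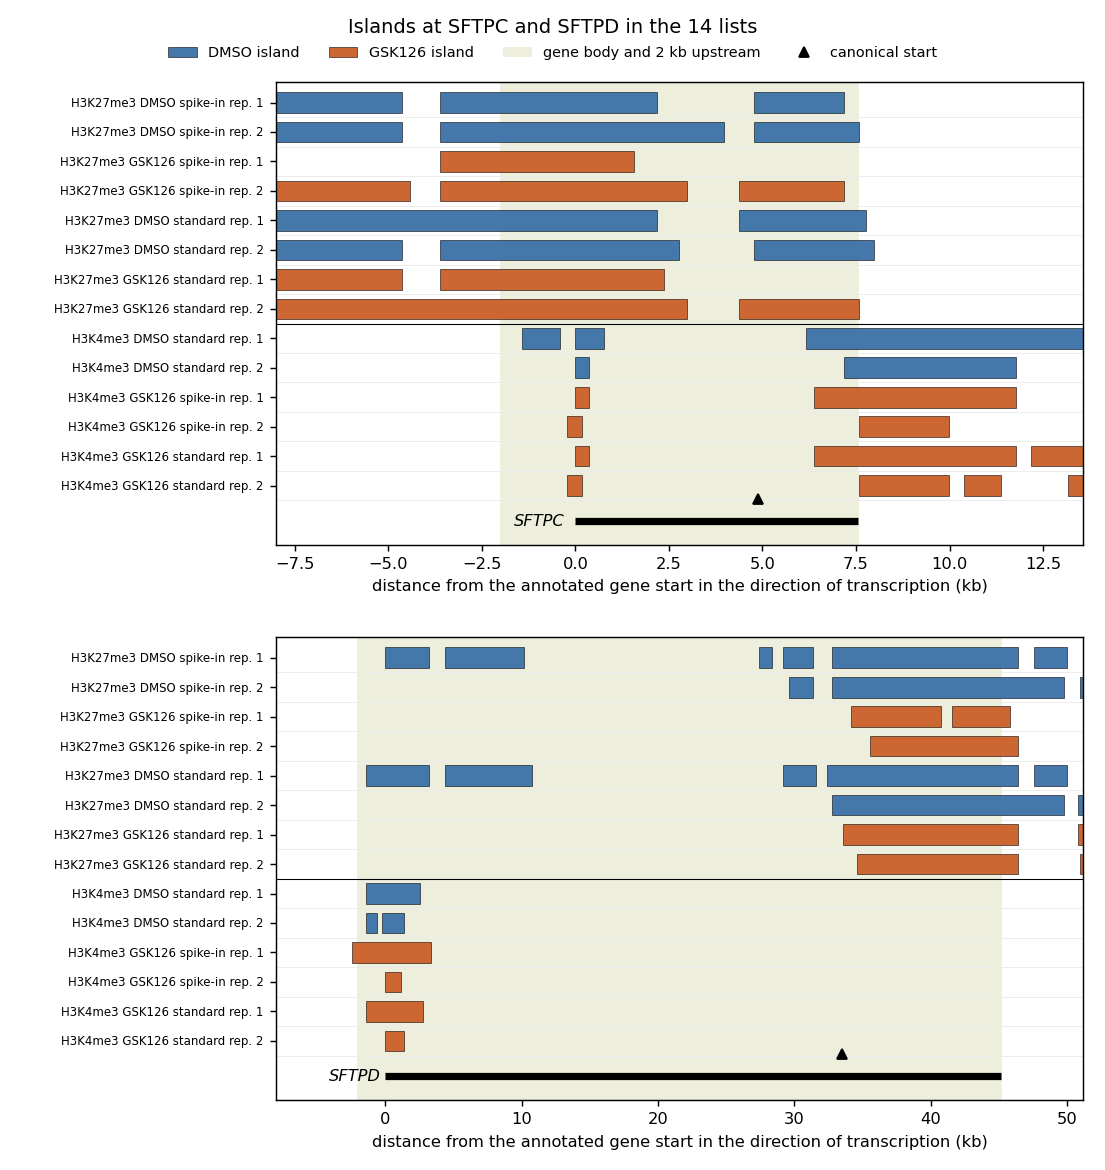
Islands at *SFTPC* (top) and *SFTPD* (bottom) in the 14 lists, 1 list per line, against the distance in kb from the annotated gene start in the direction of transcription. Colours, shading, line and triangle are DMSO islands (blue), GSK126 islands (orange), gene body plus 2 kb upstream, gene, and canonical start. H3K27me3 islands remain over both genes in all GSK126 lists, and the canonical starts carry no H3K4me3 island.

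The forkhead factors carried no H3K27me3 in any list. *FOXA1*, a pioneer factor that opens chromatin for other factors, lies at chr14:38058757-38065264, and its nearest H3K27me3 island was 609.5 to 1061 kb away. H3K4me3 islands covered 100% and 73.6% of its region with DMSO, 100% and 71.3% in the GSK126 spike-in lists, and 100% and 76.0% in the GSK126 standard lists. This was the widest H3K4me3 coverage of the 10 genes in all 6 lists, and the same islands held the start of *TTC6*, which overlaps the *FOXA1* start. The direction in replicate 2 depended on the normalization, with a difference of -2.35 points in the spike-in and 2.35 points in the standard comparison.

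*FOXA2*, its paralogue, lies at chr20:22561636-22566093 and had small H3K4me3 islands. They covered 21.7% and 9.29% with DMSO, 31.0% and 0% in the GSK126 spike-in lists, and 12.4% and 15.5% in the GSK126 standard lists. The replicates moved in opposite directions under each normalization, so no direction can be given. An H3K27me3 island lay 1.04 to 11.8 kb from the *FOXA2* region in the DMSO lists, and the nearest one in the GSK126 lists was 239 to 247 kb away. The H3K27me3 next to this gene was thus not found with GSK126 under either normalization.

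*TP63* and *SCGB1A1* had almost no islands. At *TP63*, chr3:189349178-189615065, no H3K27me3 island was found, and the nearest was at least 652 kb away with DMSO. An H3K4me3 island of 2.4 kb, or 0.896% of the region, was present in the 3 lists of replicate 1 and in none of replicate 2, and it lay 51.2 kb from the nearest annotated start. At *SCGB1A1*, chr11:62172575-62190667, H3K27me3 covered 0% and 9.09% of the region in the DMSO spike-in lists and 21.0% and 0% in the DMSO standard lists. With GSK126 it was 0% in all 4 lists, and no H3K4me3 island lay in the region in any list.

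**Figure D4:**
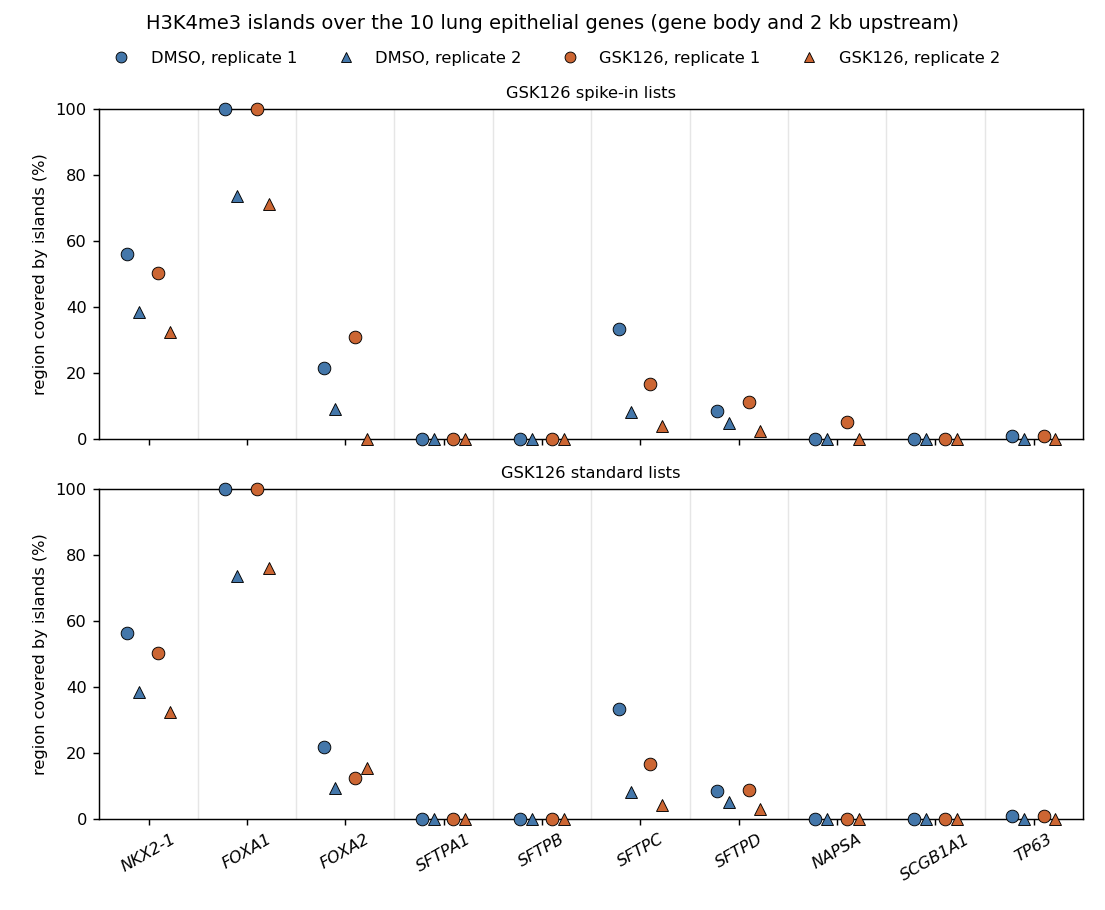
Percent of the gene region covered by H3K4me3 islands for each of the 10 genes. The DMSO points are the same in both panels, since each DMSO library has 1 list, and are set beside the GSK126 spike-in lists above and the GSK126 standard lists below. Blue is DMSO, orange GSK126, circles are replicate 1 and triangles replicate 2. *FOXA1* is highest in every list, and *SFTPA1*, *SFTPB* and *SCGB1A1* sit at 0 throughout.

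For H3K4me3, 2 of the 10 genes, *NKX2-1* and *SFTPC*, were covered less with GSK126 in both replicates under either normalization. This was the case for 25.2% of all genes in the spike-in comparison and for 25.6% in the standard one, or for 37.1% and 37.8% of the 13664 genes with an island in both DMSO libraries. In the shallower replicate 2 alone, 5 of the 10 genes were lower in the spike-in comparison. The share of all genes for that replicate alone was not determined, so this count has no reference. The covered length summed over the 10 genes changed by a log2 ratio of -0.17 ± 0.27 (SD, n = 2) with the spike-in and -0.15 ± 0.010 with the standard normalization, beside -0.17 ± 0.012 and -0.16 ± 0.082 over all genes. In the spike-in comparison the sign differed between replicates, with 0.028 in replicate 1 and -0.36 in replicate 2.

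To ask whether the marks changed alike, the log2 ratios of the total covered length were compared. The mean log2 ratio of H3K27me3 minus that of H3K4me3 was -0.97 in the spike-in comparison and -0.37 in the standard one. In an exact two-sided permutation test over 6 splits both had p = 0.333, the smallest that 2 replicates against 2 can give. The test therefore cannot decide whether the marks changed alike. Leaving out a replicate gave -1.31 and -0.63 for the spike-in comparison, and -0.63 and -0.11 for the standard one. The spike-in lists were called on unlike tag numbers. The ratio of GSK126 to DMSO tags was 0.231 and 0.196 for H3K27me3, and 0.836 and 0.869 for H3K4me3. How much of the spike-in difference follows from this removal of tags was not tested.

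The standard normalization gave a smaller decrease of H3K27me3 over these genes. Coverage was lower in both replicates for 4 of the 10 genes (*NKX2-1*, *SFTPA1*, *SFTPD* and *NAPSA*), beside 14.3% of all genes and 56.3% of the 5101 genes with an island in both DMSO libraries. Only *NKX2-1* was lower by more than 5% of its region in both replicates. The log2 ratio of the total covered length was -0.52 ± 0.38 (SD, n = 2), with -0.79 in replicate 1 and -0.25 in replicate 2, beside -0.31 ± 0.14 over all genes. It was -0.31 with the stricter score and -0.28 for the canonical transcript. Of the 4 genes with islands in all 4 standard lists, *SFTPC* and *SFTPD* had a higher score per kb with GSK126 in both replicates, as did 56.3% of the 4114 genes. *SFTPA1*, with log2 ratios of -0.10 and -0.0062, and *NAPSA*, with -0.16 and -0.50, had a lower one in both, as did 21.5%. The score per kb is taken over whole islands, and the island length differed between treatments at all 4 genes in replicate 1. At *NAPSA* it went from 19.6 kb with DMSO to 6.4 kb with GSK126, and at *SFTPA1* from 22.6 kb to 26.4 kb. In replicate 2 it differed at all but *SFTPA1*, where it was 14.4 kb in both treatments.

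**Figure D5:**
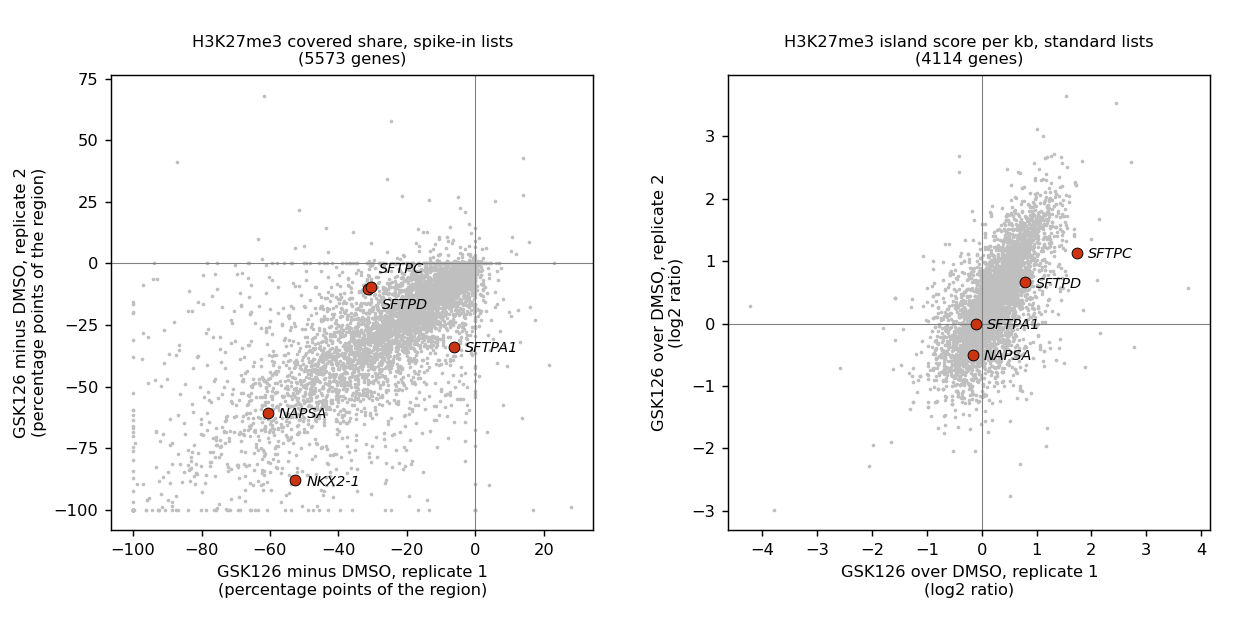
The lung epithelial genes (red, named) among all protein-coding genes (grey), with replicate 1 on the x axis and replicate 2 on the y axis. The left panel gives the change with GSK126 in the percent of the region covered by H3K27me3 islands of the spike-in lists, in percentage points, for 5573 genes with an island in both DMSO libraries. The right panel gives the log2 ratio of the H3K27me3 island score per kb between the standard lists for 4114 genes with an island in all 4. *NKX2-1* and *NAPSA* lie among the larger decreases on the left, and *SFTPC* lies at the upper edge of replicate 1 on the right.

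Other genes of the lung cell types were taken from lists of alveolar type 2, alveolar type 1, club, ciliated and basal cells and of lung regulators, 46 genes in all. Of these, 21 had an H3K27me3 island in both DMSO spike-in libraries, and 20 of the 21 were covered less in both replicates with GSK126, none more. This share is read against the 89.7% of all such genes. The alveolar type 2 list holds *SFTA3*, which shares its start with *NKX2-1*, so that this locus is counted again here and in the H3K4me3 count below. Of the genes with such an island, lower coverage was found for 7 of 7 in the alveolar type 2 list, 3 of 3 in the alveolar type 1 list, 5 of 5 in the club cell list, 2 of 2 in the ciliated cell list, 1 of 1 in the basal cell list and 2 of 3 regulators.

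*SFTPA2*, the paralogue of *SFTPA1*, went from 87.8% and 100% covered with DMSO to 21.2% and 67.0% with GSK126. *BPIFA1*, a secreted airway protein, went from 100% in both DMSO libraries to 4.29% and 51.5%, and *LAMP3*, a lamellar body protein, went from 32.1% and 31.6% to 0% in both. The regulator *HNF4A*, which belongs to other endodermal lineages, kept islands, with 59.2% and 64.6% covered with DMSO and 18.4% and 13.6% with GSK126. *FOXP2* was the exception among the 21, with 0.561% and 0.725% of a long region covered with DMSO and 0.692% and 0.659% with GSK126. An H3K4me3 island lay at the start of 25 of the 46 genes in both DMSO libraries, where 60.5% of all genes had one, among them *ABCA3* and *LPCAT1* of the alveolar type 2 list and 8 of 10 regulators, and at none of the 6 club cell genes.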

How the data were processed

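Single-end tags of 50 nt had been placed on hg19 by the authors with BWA. They kept uniquely mapped tags with a mapping quality above 25, removed tags at random for either normalization, and called islands in each library with SICER 1.1 (E-value 1, 200-bp windows, and gaps up to 600 bp in H3K27me3 or 200 bp in H3K4me3). SAMtools 0.1.18 is named in the submitters' processing notes. The only value deposited for an island is its score, which is the authors' own and depends on the number of tags, and so scores were compared only within a replicate between H3K27me3 standard lists, divided by island length.

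Python 3.11.15 with NumPy 2.4.6 was used to count the bp of each region under islands, on GENCODE release 44 mapped to GRCh37. Treatment and mark came from the sample labels. The replicate numbers follow accession order, and the pairing of libraries rests on the titles and on tags having been removed within a replicate. Tag density was fitted with SciPy 1.17.1 from islands of 1 or 2 windows, and the tags at an island carry no interval. The study describes its replicates as biological, and the labels name no cultures. The steps were tested on simulated data. Plots were drawn with Matplotlib 3.10.9. All 10 genes are named. Genes named from the other lung lists are among the 3 largest changes in either direction of each list, except *ABCA3* and *LPCAT1*, which were chosen after their values were seen, and *SFTA3*, named as a neighbour of *NKX2-1*. A further gene of the lists is not reported here. The genes and lists were chosen with earlier results of these data known. Alternatives were a score at least 2 times the lowest of the list, the gene body alone, 2000 bp (for the marks at the start also 1000 or 500 bp) on either side of the start, longer islands (2000 bp or 600 bp), a difference or coverage above 5% of the region, leaving out each replicate, no pairing, the standard DMSO list, and, chosen after seeing the data, the canonical transcript. The endothelial marker PECAM1 was not found under that symbol and was not analysed here.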

Additional observations from a re-analysis of the deposited data

How the results depend on the processing

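With 2 replicates, shallow lists and no tag counts, a lost island can lie just under the calling threshold, and differences of 1 or 2 windows are at the resolution of the lists. The sign of the H3K27me3 totals was negative under every alternative of each normalization. The spike-in total was -1.36 with the stricter score, and leaving out a replicate gave -1.28 to -0.99. The standard total of -0.52 became -0.31 with the stricter score and -0.28 for the canonical transcript, within its SD. Under the stricter score *SFTPC* was covered more with GSK126 in both replicates of the standard comparison. The 7 genes with either mark at the start with DMSO became 6 within 1000 bp or with the stricter score, and 5 within 500 bp. The spike-in count of 5 became 3 for the window around the start. The standard count of 4 became 2 for that window, 1 for differences above 5% of the region and 2 with no pairing. The H3K4me3 spike-in count of 2 became 1 for the gene body, 0 around the start, 1 above 5%, 0 with no pairing, and 2 to 5 on leaving out a replicate. The H3K4me3 spike-in total ranged from -0.36 to 0.028 on leaving out a replicate, the last being without replicate 2, and thus changed its sign. The H3K4me3 standard count of 2 became 0 around the start, 1 above 5% and 0 with no pairing. Its total of -0.15 became -0.20 with the stricter score, -0.078 for the gene body, -0.17 for longer islands, -0.069 for the canonical transcript and -0.28 for coverage of at least 5%. The count of 2 genes with a higher score per kb became 1 for the canonical transcript, where *SFTPC* has no GSK126 island in replicate 1. Without the replicate block, that is, with no pairing, the H3K27me3 spike-in count was 4 and its total -1.13. The share of all genes was not determined for the counts with no pairing, and none is given for the counts under the other alternatives. These counts therefore have no reference. The causes of these differences between settings were not tested.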
